A study of Rattus norvegicus with 6 samples.

Results

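This account covers 31 genes of cholesterol and fatty acid synthesis in the colonic epithelium of rats given melatonin or vehicle. They were chosen by gene symbol for their place in the pathways, with earlier results of these data known. Counts over the list are therefore description. Of the 31, 18 encode enzymes that build sterols, 5 sense sterols or switch the pathway on (Insig1, Insig2, Srebf1, Srebf2 and Scap), 1 carries sterols between membranes (Stard4) and 7 encode enzymes of fatty acid synthesis. They are 31 of 13104 genes and unmatched transcripts in the table, each had a row, and each reached the mean of 1 FPKM needed for testing. FPKM counts sequenced fragments per kilobase of transcript, scaled to the mapped total of the library. The list does not hold every enzyme of either pathway.

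The animals were 6 adult male Wistar rats from which the pineal gland had been removed, which takes away its own nightly melatonin. Vehicle animals 1, 2 and 3 received 2.5% ethanol in PBS and melatonin animals 4, 5 and 6 received melatonin at 1 mg/kg, both injected into the peritoneum at the start of subjective night. Both groups therefore lacked the gland. The inner epithelial layer of the colon was taken 4 h later, and its polyadenylated RNA was sequenced as 1 library per animal.

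Cells build cholesterol from acetyl-CoA through mevalonate, squalene and lanosterol, and build fatty acids by joining acetyl-CoA units and then lengthening and desaturating the chain. Both pathways are switched on by the SREBP transcription factors, which are held in the endoplasmic reticulum by Scap and the Insig proteins while sterols are plentiful. SREBP-2, from Srebf2, acts mainly on sterol genes and SREBP-1, from Srebf1, mainly on fatty acid genes. The colonic epithelium renews itself constantly, lies next to acetate made by gut bacteria, and makes its own membrane lipids.

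Judged by the spacing of the lowest FPKM values, each library was estimated to hold 3270000 to 3580000 mapped fragments. A doubled total would fit the same spacing, so these are the smaller estimates. The members rested on between 12 (Insig2) and 2139 (Acss2) of these estimated fragments in a library. Markers of the labelled tissue were abundant: the summed level of 9 genes of absorptive colonocytes was 4930.0 to 6605 FPKM. The 5 smooth muscle genes with a row summed to 8.37 to 14.3 FPKM, the 6 fibroblast genes to 1.53 to 4.02, and the 5 endothelial genes to 2.28 to 4.68. Adipocyte genes summed to 14.5 to 23.1 FPKM after vehicle and 15.6 to 20.0 after melatonin, mostly Cidec, while Plin1 was listed at 0 in 5 of 6 animals and Adipoq at 0 to 2.88. Melatonin animals 5 and 6 stood apart for interferon-stimulated genes. That list was added after the data were seen, so its counts are description. Of the 15 tested, 14 lay above every vehicle animal in each of them, where 26.1% and 21.4% of all features did. The median of the 15, taken against the vehicle mean on the log2 scale, was 1.35 and 1.24, and -0.07 in animal 4. Rsad2 stood at 0 to 0.08 FPKM after vehicle and 0 in animal 4, and Ifit1 at 0.13 to 1.05 and 0.54. Both reached the mean needed for testing only through animals 5 and 6, and both are among the 14 in each of these animals.

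Whether melatonin alters lipid synthesis genes was asked by comparing the 3 melatonin with the 3 vehicle animals. No member passed the test. Of the 31, 0 were called at an adjusted p under 0.05 by limma on log2(FPKM + 1), where 0.0% of all 10137 features tested were called, and the adjusted p-values lay between 0.972 and 0.992. At an unadjusted p under 0.05, 2 members had higher values after melatonin, Dhcr7 and Hsd17b7, where the background was 1.82% of all features. In the other direction there was 1, Tm7sf2, where the background was 1.92%. The log2 change was positive for 21 members and negative for 10, with a median of 0.13, against 46.0% positive and a median of -0.02 over all features tested. Log2 changes here are melatonin minus vehicle with their standard error, and intervals are 95% intervals not adjusted for the number of genes. The limma p-values set the difference between the groups against the spread of these 6 animals within their groups, adjusted toward that of all features tested. At 3 per group the smallest p that an exact two-sided permutation test of a single gene could give is 0.1.

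**Figure D1:**
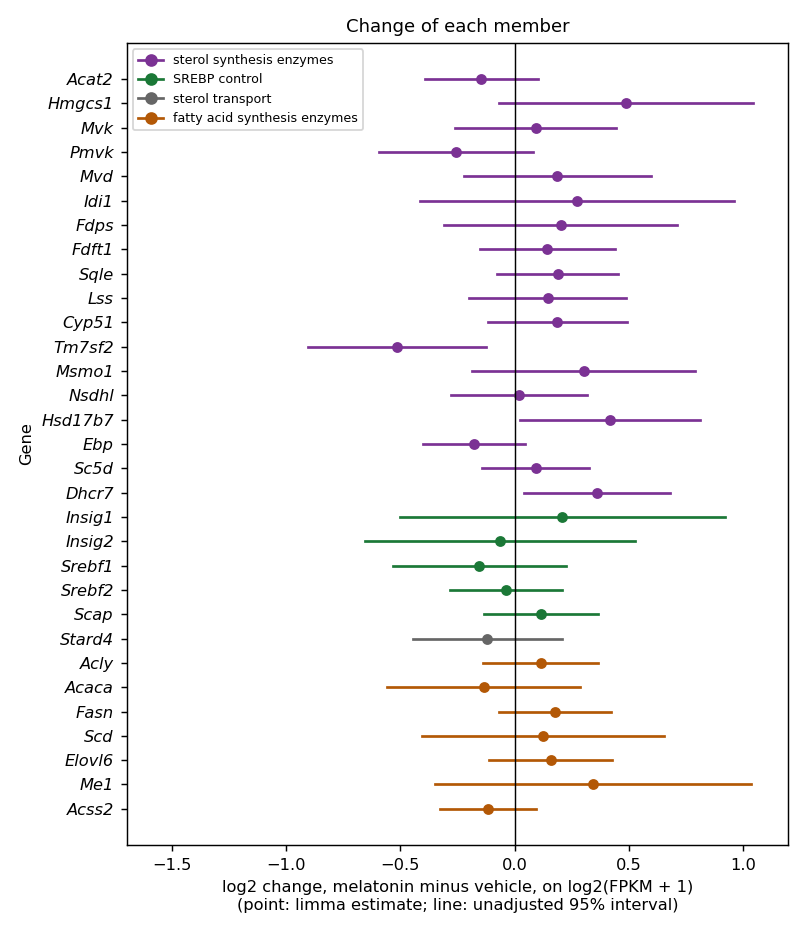
Log2 change of each of the 31 members on log2(FPKM + 1), melatonin minus vehicle, with the limma estimate as a point and its unadjusted 95% interval as a line. The intervals of Tm7sf2, Hsd17b7 and Dhcr7 lie to one side of 0, and no member passed after adjustment.

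At the entry to the pathway the 2 listed enzymes differed. Hmgcs1, which makes HMG-CoA for the mevalonate route, stood at 69.1, 84.1 and 62.3 FPKM in vehicle animals 1, 2 and 3 and at 70.8, 97.3 and 146 in melatonin animals 4, 5 and 6. Animals 5 and 6 lay above every vehicle animal and animal 4 lay among them, so that the groups overlapped. Values below follow the same order, with the vehicle animals before the melatonin animals. The group values were 71.8 ± 11.2 and 105 ± 38.2 FPKM (mean ± SD, n = 3 each), and the log2 change was 0.49 ± 0.24 with an interval of -0.07 to 1.04 and a limma adjusted p of 0.972. Without melatonin animal 6 it was 0.22. Acat2, the cytosolic thiolase that joins acetyl-CoA units before this step, did not share the pattern, at 64.1, 71.0 and 68.2 FPKM after vehicle and 68.5, 57.9 and 57.4 after melatonin. Its lowest values were those of animals 5 and 6.

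The kinases that phosphorylate mevalonate and the decarboxylase that follows differed among themselves. Mvk, mevalonate kinase, stood at 15.1, 17.3 and 21.4 FPKM after vehicle and 17.5, 19.3 and 20.3 after melatonin, with every melatonin value inside the vehicle range. Pmvk, phosphomevalonate kinase, stood at 26.7, 21.2 and 28.7 against 21.4, 19.1 and 22.9 FPKM, so that animal 5 was lowest and the groups overlapped. Mvd, the decarboxylase that yields the isoprene unit, stood at 21.1, 17.5 and 17.4 against 17.2, 20.9 and 27.1 FPKM. In Mvd, animal 6 was the one melatonin animal above the vehicle range and animal 4 lay just below it.

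The enzymes that rearrange and join isoprene units had some of the largest spreads among the melatonin animals. Idi1, the isomerase of isopentenyl diphosphate, stood at 28.9, 28.9 and 24.6 FPKM after vehicle and 20.7, 32.3 and 55.2 after melatonin. Fdps, which makes farnesyl diphosphate, stood at 155, 154 and 131 against 116, 178 and 230.2 FPKM. In both genes animal 6 was the highest of the 6 and animal 4 the lowest, with the vehicle animals in between. The log2 change was 0.28 ± 0.30 for Idi1 and 0.20 ± 0.22 for Fdps, and without melatonin animal 6 it was -0.08 and -0.02, so that its sign rested on that animal. Fdft1, squalene synthase, stood at 71.9, 74.6 and 74.8 against 68.8, 82.2 and 96.0 FPKM, with the vehicle animals close together and animals 5 and 6 above them.

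From squalene to lanosterol and its first demethylation the melatonin animals lay closer together. Sqle, squalene epoxidase, stood at 34.9, 38.5 and 37.2 FPKM after vehicle and 37.6, 42.5 and 46.8 after melatonin, and Lss, which closes the sterol rings, at 17.0, 22.7 and 17.9 against 18.8, 22.7 and 22.1. Cyp51, the lanosterol demethylase, stood at 104, 102 and 119 against 106, 120.5 and 146 FPKM. In Sqle and Cyp51 animals 5 and 6 lay above the vehicle range, and in Lss no melatonin animal did. The log2 changes were 0.19 ± 0.12, 0.14 ± 0.15 and 0.19 ± 0.13 in that order. Without melatonin animal 6, that of Sqle was 0.12 and that of Cyp51 0.07, and without vehicle animal 1 that of Lss was 0.07.

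Tm7sf2, a sterol reductase that acts on the product of Cyp51, had lower values in each melatonin animal. It stood at 19.7, 21.7 and 16.9 FPKM in the vehicle animals and at 13.6, 15.7 and 10.8 in the melatonin animals, with no overlap. The group values were 19.4 ± 2.44 and 13.3 ± 2.45 FPKM (mean ± SD, n = 3 each), with a log2 change of -0.52 ± 0.17, an interval of -0.91 to -0.13 and a limma adjusted p of 0.972. Animal 6, highest for Hmgcs1, Idi1 and Fdps, was lowest for Tm7sf2. All 3 melatonin animals lay below all 3 vehicle animals for 4.33% of the features tested, and among the 31 members for 2, Tm7sf2 and Ebp.

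The enzymes that remove methyl groups from lanosterol's successors included 1 of the 2 members with melatonin above vehicle in every animal. Msmo1, the methylsterol oxidase, stood at 65.7, 84.0 and 65.7 FPKM after vehicle and 64.4, 88.8 and 119.7 after melatonin, so that animals 5 and 6 lay above the vehicle range and animal 4 just below it. Nsdhl, the dehydrogenase that follows, stood at 43.0, 38.9 and 40.9 against 36.8, 39.5 and 49.2 FPKM, with animal 6 highest and animal 4 lowest. Hsd17b7, a ketosteroid reductase, was the enzyme with the lowest level of the 18, at 4.52, 5.30 and 4.91 FPKM after vehicle and 6.01, 7.51 and 7.19 after melatonin. Its groups did not overlap, its log2 change was 0.42 ± 0.17 with an interval of 0.02 to 0.81 (limma adjusted p = 0.972), and its values rest on an estimated 27 to 45 fragments per library. All 3 melatonin animals lay above all vehicle animals for 4.04% of the features tested.

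The last steps were mixed. Dhcr7, the reductase of the final step, was the other member with every melatonin animal above every vehicle animal, at 29.5, 21.8 and 24.5 FPKM after vehicle and 30.5, 35.4 and 31.6 after melatonin. The gap between the groups was narrow, from 29.5 in vehicle animal 1 to 30.5 in melatonin animal 4, and the log2 change was 0.36 ± 0.14 with an interval of 0.04 to 0.68 (limma adjusted p = 0.972). Ebp, a sterol isomerase, stood at 54.5, 58.3 and 58.1 FPKM after vehicle and 54.0, 48.1 and 48.8 after melatonin, again without overlap and in the direction of Tm7sf2. Its log2 change was -0.18 ± 0.10. Sc5d, a sterol desaturase, stood at 46.2, 46.7 and 52.8 against 49.6, 52.3 and 53.4 FPKM, with the groups overlapping.

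**Figure D2:**
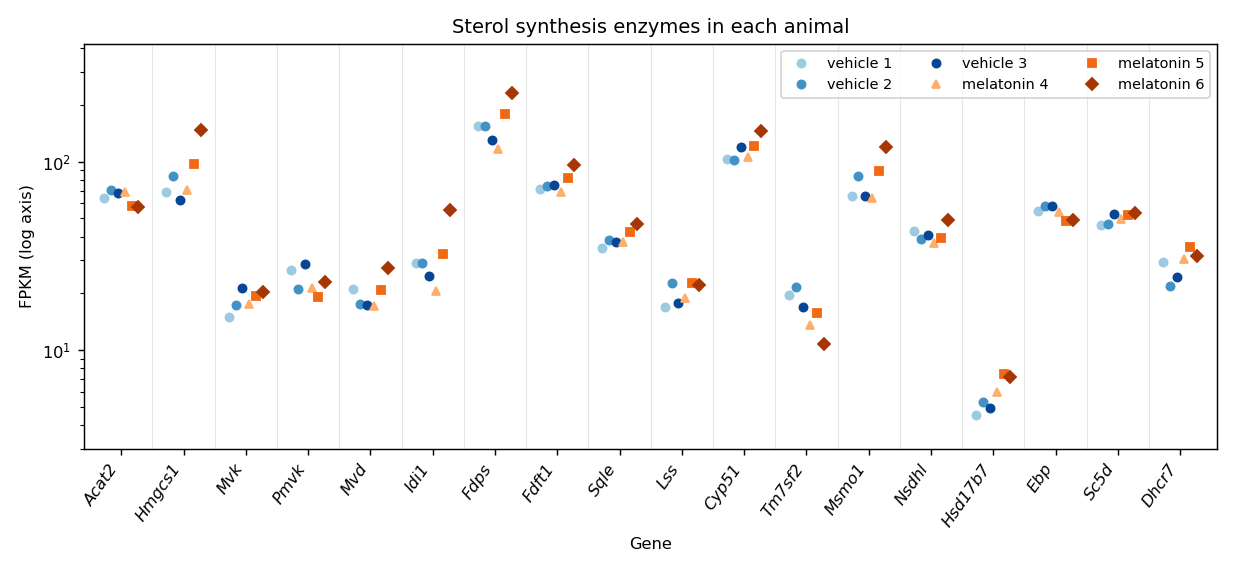
FPKM (log axis) of the 18 sterol synthesis enzymes in each animal, with circles for vehicle and triangles, squares and diamonds for melatonin animals 4, 5 and 6. Animal 6 (diamonds) is the highest of the 6 animals in 10 of the 18 genes and animal 4 (triangles) is the lowest in 6 (10.6% of all features), while Tm7sf2 has animal 6 lowest.

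Across the 18 sterol enzymes the melatonin animals did not form one group. Animal 6 was the highest of the 6 animals in 10 genes, animal 5 in 2 and animal 4 in 0, where over all features tested the shares were 14.3%, 17.1% and 21.4%. Among the melatonin animals alone, animal 4 was lowest in 14 of the 18 and animal 6 highest in 12, against 27.0% and 22.5% of all features. Animal 6 was thus high for these enzymes although it was the lowest of the 6 animals for 33.3% of all features, and for 2 of the 18. The median difference of the 18 enzymes from the vehicle mean on log2(FPKM + 1) took the values -0.05, 0.16 and 0.33 in melatonin animals 4, 5 and 6, and -0.05, 0.05 and 0.00 in vehicle animals 1, 2 and 3. Over all features tested the same median was 0.04, 0.00 and -0.09 in animals 4, 5 and 6. Read against the vehicle range, animal 5 lay above it in 9 genes and animal 6 in 12, where 26.1% and 21.4% of all features did, and animal 4 lay below it in 8, where 17.6% did. Vehicle animal 2 was highest in 4 of the 18, close to its 19.8% of all features. The enzymes' median log2 change was 0.17, with 14 of 18 positive. It was 0.27 without melatonin animal 4 and 0.04 without melatonin animal 6, with 11 of 18 positive then. The median over all features tested was -0.05 and 0.02 in these 2 settings, so without animal 6 the enzymes lay close to it. Of all 31 members, Tm7sf2, Hsd17b7, Ebp, Dhcr7, Fasn and Elovl6 had log2 changes that stayed within 1.5 times of their value whichever animal was left out, and each of the others moved further without at least 1 animal.

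The interferon-stimulated genes named above were high in animals 5 and 6 to a similar degree, while the sterol enzymes were highest in animal 6. Markers of T and NK cells summed to 3.24 to 13.1 FPKM after vehicle and to 6.59, 16.8 and 29.6 in melatonin animals 4, 5 and 6. Macrophage and dendritic cell genes summed to 5.08 to 8.75 FPKM after vehicle and to 20.2, 13.1 and 8.06 in the same melatonin animals. Lyz2 alone gave 15.3 FPKM of the sum in animal 4. B and plasma cell genes summed to 0.70 to 1.66 FPKM after vehicle and to 8.38, 1.17 and 0 in the melatonin animals. The 9 colonocyte genes had median differences from the vehicle mean of -0.29, 0.07 and 0.09 in animals 4, 5 and 6, the same order as the sterol enzymes. In vehicle animals 1, 2 and 3 they were -0.05, 0.13 and 0.015, so animals 5 and 6 lay inside the vehicle range. Animal 4 was lowest of the 6 animals in 5 of the 9 (10.6% of all features). Animal 6 and vehicle animal 2 were each highest in 4 (14.3% and 19.8% of all features). The goblet genes had another order, with medians of 0.02, -0.20 and -0.04 in animals 4, 5 and 6. The part of these cells and of the interferon genes in the sterol values was not tested. In bulk tissue, fewer cells of a type and less RNA per cell cannot be told apart.

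Promoters of members with high values in animal 6 are shown because SREBP proteins act at promoters together with NF-Y, a factor that binds the CCAAT box. In animal 6, 6 members stood at 1.5 times the vehicle mean or more (Hmgcs1, Idi1, Fdps, Msmo1, Insig1 and Me1), where 6.31% of all features did. The 250 bases before the start site are given for all 6 and for Tm7sf2, which had the opposite values, 5′ to 3′ on the strand of the gene, from RefSeq in build GRCr8. Capitals mark CCAAT or its reverse complement ATTGG.
Insig1, chr4:8057770-8058019, minus strand: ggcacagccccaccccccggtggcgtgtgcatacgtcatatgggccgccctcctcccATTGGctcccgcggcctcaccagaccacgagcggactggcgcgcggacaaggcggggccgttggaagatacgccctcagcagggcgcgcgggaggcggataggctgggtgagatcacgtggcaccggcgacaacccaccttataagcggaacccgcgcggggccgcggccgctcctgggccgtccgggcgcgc
Hmgcs1, chr2:53382054-53382303, plus strand: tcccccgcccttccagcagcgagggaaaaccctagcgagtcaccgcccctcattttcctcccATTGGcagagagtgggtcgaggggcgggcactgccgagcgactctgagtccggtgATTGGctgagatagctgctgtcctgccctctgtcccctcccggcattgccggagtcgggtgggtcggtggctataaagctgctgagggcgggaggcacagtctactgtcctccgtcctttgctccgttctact
Idi1, chr17:66547525-66547774, minus strand: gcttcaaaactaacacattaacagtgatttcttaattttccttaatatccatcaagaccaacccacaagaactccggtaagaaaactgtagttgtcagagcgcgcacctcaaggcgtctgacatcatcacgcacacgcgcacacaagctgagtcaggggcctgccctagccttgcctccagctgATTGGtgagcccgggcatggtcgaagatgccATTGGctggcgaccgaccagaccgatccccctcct
Fdps, chr2:176804817-176805066, minus strand: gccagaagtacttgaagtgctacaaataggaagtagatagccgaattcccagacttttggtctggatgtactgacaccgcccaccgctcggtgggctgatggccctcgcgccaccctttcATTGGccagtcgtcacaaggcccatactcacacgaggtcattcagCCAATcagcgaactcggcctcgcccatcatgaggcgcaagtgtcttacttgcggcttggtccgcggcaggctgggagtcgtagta
Msmo1, chr16:29746863-29747112, plus strand: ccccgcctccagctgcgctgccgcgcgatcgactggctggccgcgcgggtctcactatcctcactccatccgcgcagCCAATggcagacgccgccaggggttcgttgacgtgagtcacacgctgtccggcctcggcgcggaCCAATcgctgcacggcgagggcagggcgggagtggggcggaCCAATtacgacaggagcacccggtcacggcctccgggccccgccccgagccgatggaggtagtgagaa
Me1, chr8:96540245-96540494, minus strand: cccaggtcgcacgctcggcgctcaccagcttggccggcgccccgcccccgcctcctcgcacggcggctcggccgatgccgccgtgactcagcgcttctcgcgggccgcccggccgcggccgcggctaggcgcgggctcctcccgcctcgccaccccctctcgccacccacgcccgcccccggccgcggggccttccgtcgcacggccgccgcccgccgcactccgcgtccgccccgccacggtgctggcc
Tm7sf2, chr1:212789542-212789791, minus strand: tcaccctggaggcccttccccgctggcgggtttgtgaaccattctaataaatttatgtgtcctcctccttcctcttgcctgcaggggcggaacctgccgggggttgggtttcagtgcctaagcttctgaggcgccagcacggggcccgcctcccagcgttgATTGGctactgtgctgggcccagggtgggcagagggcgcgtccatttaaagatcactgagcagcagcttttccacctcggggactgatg

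Promoters were matched for 24 of the 31 members, and not for Pmvk, Fdft1, Sqle, Stard4, Acaca, Fasn and Elovl6. CCAAT, searched on both strands in the 250 bases, was present in 18 of the 24, among them 12 of 15 sterol enzymes and 2 of 4 fatty acid enzymes. The share was 34.3% over 27457 rat promoters and 36.4% over the 7880 that belong to tested genes. Of the 6 members with high values in animal 6, Me1 did not hold it, and Tm7sf2 did. No match overlapped a match to another motif searched. The GC box GGGCGG was present in 20 of the 24, against 59.0% of promoters of tested genes, and the E-box CACGTG in 3, against 8.53%. The letters TCACNCCAC, one form of the sterol regulatory element, were in 0 of the 24 and in 0.99% of promoters of tested genes, which says only that these letters are not in this window.

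Among the genes that control the pathway, Insig1 stood out in a single animal. Insig1, the sterol-sensing retention protein and itself a target of SREBP-2, stood at 60.5, 68.6 and 53.2 FPKM after vehicle and 52.9, 51.9 and 125 after melatonin. Animal 6 was 2.05 times the vehicle mean, and animals 4 and 5 lay just below the vehicle range. The log2 change was 0.21 ± 0.31 with an interval of -0.50 to 0.92, and it was -0.20 without melatonin animal 6. Insig2, the second retention protein, stood at 9.80, 7.13 and 7.43 against 9.21, 9.76 and 4.89 FPKM, with animal 6 the lowest. Its values rest on an estimated 12 to 24 fragments per library. The ratio of Insig1 to Insig2 was 6.17, 9.62 and 7.16 in the vehicle animals and 5.74, 5.32 and 25.5 in the melatonin animals.

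For the transcription factors and their escort the groups overlapped. Srebf2 stood at 92.0, 107 and 104 FPKM after vehicle and 103, 104 and 88.8 after melatonin, with animal 6, where its target Insig1 was highest, at the lowest value. Srebf1, summed over its 2 transcripts, stood at 29.9, 25.5 and 34.6 against 30.6, 21.9 and 28.3 FPKM. Srebf2 exceeded Srebf1 in 6 of 6 animals, by 3.02 to 4.75 times. Scap, which escorts the SREBP proteins to the Golgi, stood at 33.5, 31.2 and 32.8 against 34.9, 38.6 and 32.7 FPKM, with animals 4 and 5 above the vehicle range and animal 6 inside it. The log2 change was -0.04 ± 0.11 for Srebf2, with an interval of -0.28 to 0.21, and 0.12 ± 0.11 for Scap. Stard4, a sterol carrier also under SREBP-2, stood at 34.2, 39.7 and 33.6 against 30.3, 39.4 and 29.6 FPKM, and animal 6 was the lowest of the 6 for it.

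**Figure D3:**
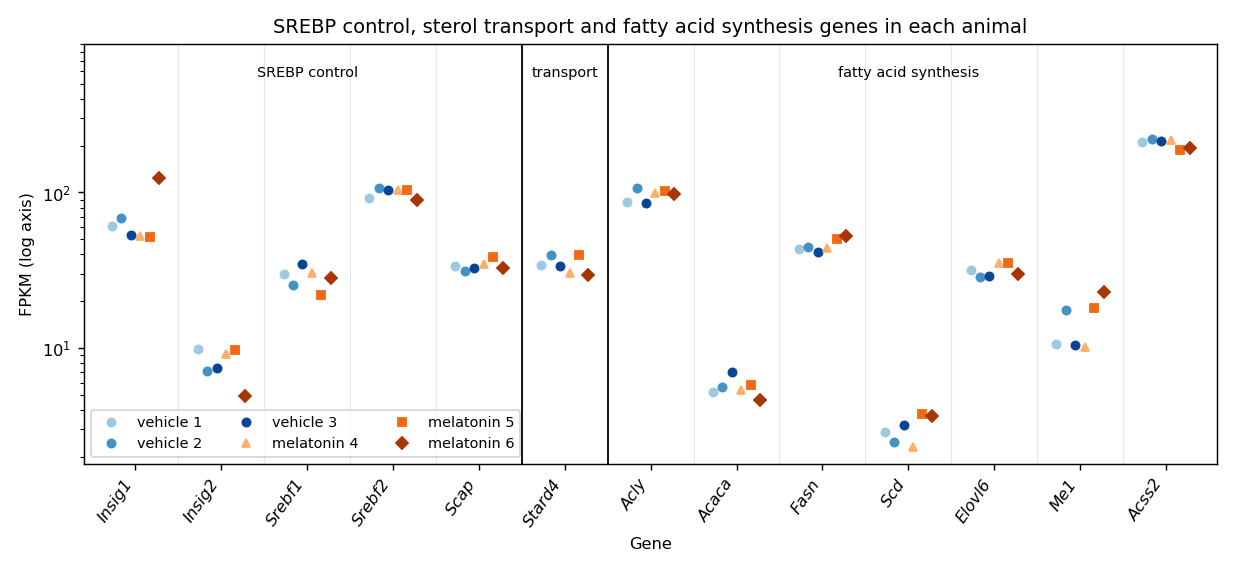
FPKM (log axis) of the 5 genes of SREBP control, of Stard4 and of the 7 fatty acid synthesis enzymes in each animal, with circles for vehicle and triangles, squares and diamonds for melatonin animals 4, 5 and 6. Animal 6 is far above the others for Insig1 and lowest for Insig2, and the fatty acid enzymes lie close together apart from Me1 and Scd.

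The groups overlapped for each of the 7 fatty acid enzymes. Acss2, which makes acetyl-CoA from acetate, had the highest level of the 31 members, at 211, 222 and 214 FPKM after vehicle and 218, 188 and 192 after melatonin. Acly, which makes acetyl-CoA from citrate, stood at 86.6, 106 and 85.3 against 99.9, 103 and 97.5 FPKM summed over its 2 transcripts. Acss2 exceeded Acly in 6 of 6 animals, by 1.83 to 2.51 times, and FPKM is scaled by length so the levels can be set side by side. The log2 change was -0.12 ± 0.09 for Acss2, with animals 5 and 6 below the vehicle range, and 0.11 ± 0.11 for Acly, with every melatonin value inside it.

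The enzymes that build the chain were at very different levels. Acaca, the carboxylase that makes malonyl-CoA, stood at 5.19, 5.62 and 6.98 FPKM after vehicle and 5.40, 5.80 and 4.66 after melatonin, and Fasn, the synthase that uses it, at 43.3, 44.5 and 41.2 against 44.0, 50.1 and 52.4. Fasn was 5.91 to 11.3 times as high as Acaca in each animal. Animals 5 and 6 lay above the vehicle range for Fasn, with a log2 change of 0.18 ± 0.11 and an interval of -0.07 to 0.42, and animal 6 lay below it for Acaca. Elovl6, which lengthens palmitate, stood at 31.9, 28.5 and 29.0 against 35.1, 35.5 and 29.8 FPKM, with animals 4 and 5 above the vehicle range and animal 6 inside it.

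Scd and Me1 differed most between animals of this arm. Scd, a stearoyl-CoA desaturase, had the lowest level of the 31 members, at 2.88, 2.50 and 3.18 FPKM after vehicle and 2.32, 3.75 and 3.67 after melatonin. Its paralog Scd2, no member of the list, stood at 96.5, 51.4 and 130.4 against 70.3, 72.6 and 78.0 FPKM, 19.4 to 41.0 times Scd in each animal. Scd and Scd2 are close in sequence, so the division of reads between them carries some uncertainty. Me1, malic enzyme, which supplies NADPH, stood at 10.7, 17.6 and 10.5 against 10.2, 18.1 and 22.8 FPKM, with animals 5 and 6 above the vehicle range. Vehicle animal 2 was also high for Me1, and animal 4 was the lowest of the 6. The log2 change was 0.34 ± 0.30 with an interval of -0.35 to 1.03, and it was 0.11 without melatonin animal 6, 0.65 without melatonin animal 4, 0.57 without vehicle animal 2 and 0.23 without vehicle animal 3.

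**Figure D4:**
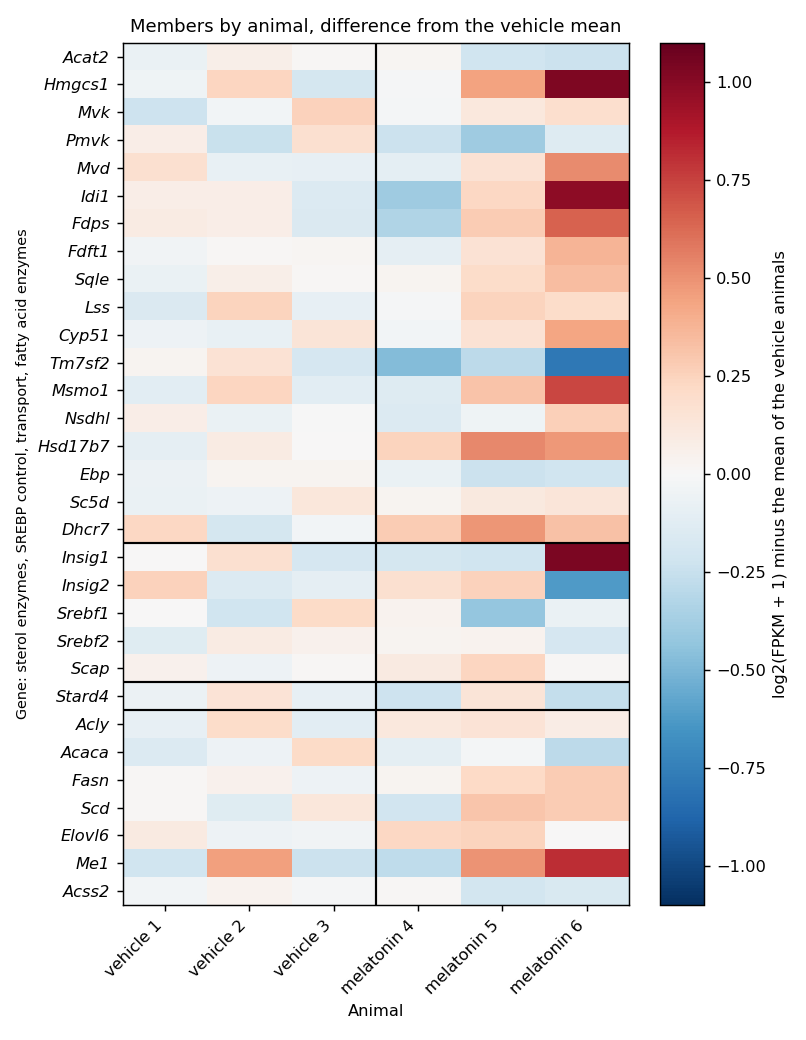
Difference of each member from the mean of the vehicle animals on log2(FPKM + 1), red for higher and blue for lower, with members in rows by role and animals in columns. Melatonin animal 6 is red for many sterol enzymes and for Insig1 and Me1, and blue for Tm7sf2 and Insig2, while animal 4 has few strong colours.

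The sums of the sterol and the fatty acid arm are set side by side here, and their difference was not tested. The summed level of the 18 sterol enzymes was 871, 908 and 866 FPKM in the vehicle animals and 818, 980 and 1191 in melatonin animals 4, 5 and 6. That of the 7 fatty acid enzymes was 391, 427 and 391 FPKM and 415, 404 and 403. It thus stayed within 391 to 427 in the 6 animals, but its parts did not. Acss2, its largest part, stood at 188 and 192 FPKM in animals 5 and 6, against a vehicle mean of 215.8. Acly, Fasn, Me1 and Scd lay above their vehicle means in both animals, Elovl6 only in animal 5, and Acaca in neither. These differences nearly cancelled, leaving the sum 0.66 and -0.26 FPKM from its vehicle mean in animals 5 and 6. The ratio of the sums was 2.22, 2.13 and 2.22 after vehicle and 1.97, 2.43 and 2.96 after melatonin. Animals 5 and 6 thus lay above the vehicle range of this ratio and animal 4 below it. The low Acss2 of animals 5 and 6 raises their ratio, and whether they stay above the range without Acss2 was not tested. In animal 6 the sterol sum exceeded the vehicle mean by 309 FPKM, of which Fdps gave 83.8, Hmgcs1 74.3, Msmo1 47.9 and Cyp51 37.7.

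Per gene rather than by sum, the arms were closer. The median log2 change was 0.13 for the fatty acid enzymes, with 5 of 7 positive, and the difference between the arms (sterol minus fatty acid) was 0.04. In single animals this difference of medians was -0.02, 0.01 and 0.04 after vehicle and -0.07, -0.06 and 0.25 in melatonin animals 4, 5 and 6. It was thus largest in animal 6, and without that animal the difference of the median log2 changes was -0.07. Without melatonin animal 4 it was 0.14, and without vehicle animal 1 it was 0.01. The fatty acid median alone stayed between 0.10 and 0.14 when any 1 animal was left out.

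The spread on log2(FPKM + 1) was larger among melatonin than vehicle animals for 24 of the 31 members, where this held for 60.0% of all features. It held for 13 of 18 sterol enzymes, for 5 of 5 genes of SREBP control and for 5 of 7 fatty acid enzymes. The median standard deviation of the sterol enzymes was 0.13 after vehicle and 0.18 after melatonin, and over all features it was 0.17 and 0.21.

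Acly and Srebf1 had 2 transcripts each in the table, and the division between them varied more than the sum. For Srebf1, the 4377-base transcript stood at 23.0, 10.9 and 24.4 FPKM in the vehicle animals and at 27.6, 21.9 and 20.8 in the melatonin animals. The 4264-base transcript stood at 6.89, 14.6 and 10.3 FPKM in the former and was listed at 2.96, 0 and 7.50 in the latter. The shorter transcript thus made up 23.0%, 57.3% and 29.6% of the gene in the vehicle animals and 9.69%, 0% and 26.5% in the melatonin animals, with the groups overlapping. For Acly, the 4301-base transcript made up 31.2%, 44.6% and 15.0% of the gene after vehicle and 14.1%, 35.3% and 21.8% after melatonin, with the groups overlapping. The 2 transcripts of a gene share most of their sequence, so that these shares depend on how the authors divided reads. The authors' deposited table gives a log2 ratio of -1.60 for the 4264-base transcript of Srebf1 and of 0.27 for the 4377-base one.

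**Figure D5:**
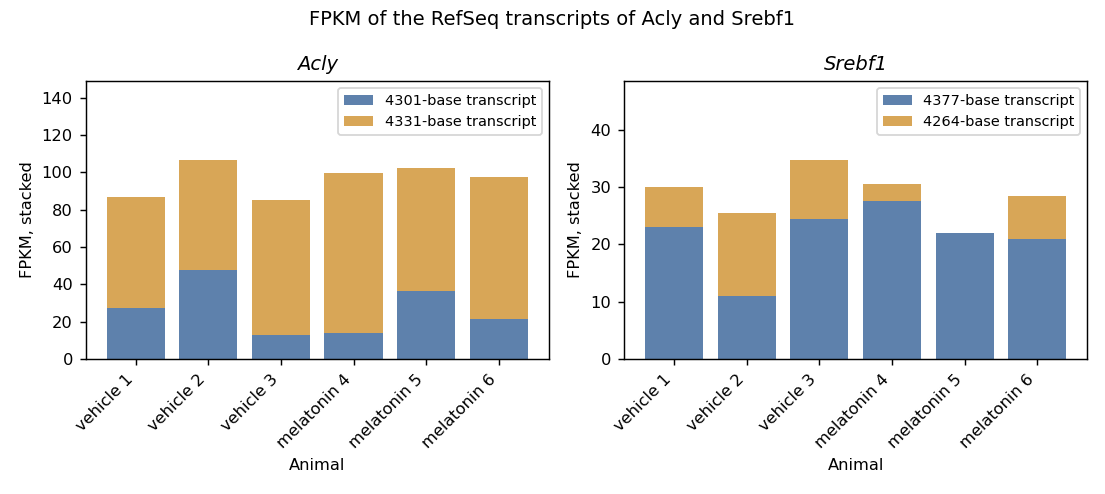
Stacked FPKM of the transcripts of Acly (left) and Srebf1 (right) in each animal, named by their length in bases. The total of each gene varies less than its division, and the 4264-base transcript of Srebf1 is listed at 0 in melatonin animal 5.

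Other genes of lipid metabolism, 85 symbols in 6 lists chosen by function, were read for the same comparison. Of these, 73 had a row and 67 were tested, and 0 were called by limma at an adjusted p under 0.05, where 0.0% of all features were. At an unadjusted limma p under 0.05, 2 had higher and 0 had lower values, where 1.82% and 1.92% of all features did. Every melatonin animal lay above every vehicle animal for 2 of the 67 and below for 1, where 4.04% and 4.33% of all features did. The genes named from these lists were picked for the smallest p in their list, so their separation is description. The median log2 change over the 67 was 0.00, with 34 positive and 33 negative. One of them was Tmem97, a sterol-regulated membrane protein. Tmem97 stood at 37.7, 31.1 and 28.8 against 34.3, 49.4 and 50.01 FPKM, with animals 5 and 6 above the vehicle range.

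In the supply list, Taldo1 of the pentose phosphate pathway stood at 232, 162 and 197 FPKM after vehicle and 184, 235 and 267 after melatonin. The sugar-responsive factor Mlxipl stood at 73.2, 179.5 and 111 against 94.3, 109 and 74.4 FPKM, with vehicle animal 2 the highest. Over the 13 tested genes of this list the median log2 change was -0.03, with 5 positive. In the list around SREBP processing, Rnf145, a ubiquitin ligase, stood at 67.2, 45.7 and 51.0 against 51.8, 70.0 and 70.5 FPKM, and Ufd1, a partner in protein extraction from the endoplasmic reticulum, at 15.7, 22.6 and 20.9 against 20.3, 27.7 and 20.5. Of the 10 tested, 4 were positive, and the median was -0.09.

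Genes for sterol uptake, esterification, export and oxidation had low values in animal 6. Of the 12 tested, 9 lay below every vehicle animal in animal 6, 5 in animal 5 and 2 in animal 4, where the shares over all features were 41.0%, 26.7% and 17.6%. Nr1h2, a liver X receptor that switches on sterol export, stood at 67.1, 69.3 and 75.4 FPKM after vehicle and 65.2, 59.2 and 61.1 after melatonin, without overlap. Cyp27a1, which makes oxysterols, stood at 29.2, 48.2 and 51.4 against 41.9, 25.5 and 23.0 FPKM, and the exporter Abca1 at 2.44, 2.03 and 2.25 against 2.29, 1.07 and 1.15. For these 3 genes animals 5 and 6 lay below the vehicle range. The median difference from the vehicle mean for the list was 0.09, -0.13 and -0.30 in animals 4, 5 and 6, while the sterol enzymes had -0.05, 0.16 and 0.33. Over all features tested it was 0.04, 0.00 and -0.09, so animal 6 was also low over all features.

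The remaining 3 lists lay near 0. The median log2 change was 0.06 over the 9 tested genes of later sterol and isoprenoid steps. Nus1, a subunit of the enzyme that makes dolichol, stood at 54.5, 47.4 and 45.9 against 43.5, 61.8 and 57.2 FPKM, and Erg28, a scaffold of sterol enzymes, at 25.1, 28.7 and 27.3 against 32.0, 28.0 and 26.8. The elongation and desaturation genes had a median of 0.06 over 10 tested, and the groups overlapped in each of them. Among them, the desaturase Fads1 stood at 2.01, 1.00 and 1.77 against 1.46, 3.83 and 3.59 FPKM, Fads2 at 39.7, 27.7 and 23.0 against 31.1, 33.5 and 40.9, and the enoyl reductase Tecr at 189.9, 189 and 197 against 197, 216 and 203. Genes of acyl activation and glycerolipid synthesis had a median of 0.01 over 13 tested. Gpam, which starts glycerolipid synthesis, stood at 15.2, 12.3 and 14.2 against 17.4, 15.8 and 16.4 FPKM, without overlap. The acyl-CoA synthetases Acsl5 and Acsl1 went opposite ways in animals 5 and 6, above the vehicle range for the former and below it for the latter. Acsl5 stood at 51.9, 43.7 and 48.8 against 49.4, 54.9 and 60.2 FPKM. Acsl1 stood at 21.2, 23.3 and 33.1 against 27.0, 18.4 and 15.5 FPKM.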

How the data were processed

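The deposited table gives FPKM values per RefSeq transcript and animal, made by the authors with 2 decimals (unit per the file headers). BWA 0.7.10-r789, Bowtie2, RSEM and build rn6 appear in the submitters' processing notes, without roles. How reads matching several transcripts were divided is not given in the sources used here, nor is the annotation release. The labels' protocols describe no strand marking, so antisense partners are not told apart. The deposited log2 ratio of group means is quoted for 1 gene only, and the deposited score per transcript was not used. The deposited transcript lengths served the depth estimate.

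Transcripts were matched by accession to RefSeq symbols (GRCr8, for names), 12883 of 13647, and summed per gene to 13104 features. Those with a mean of at least 1 FPKM entered limma 3.58.1 (R 4.3.3, two-sided, trended empirical Bayes) on log2(FPKM + 1), a scale that understates changes of low genes. P-values were Benjamini-Hochberg adjusted over 10137 features, with a threshold of 0.05. For depth, low FPKM values were read as whole fragments: 85.1% to 90.7% lay within 0.1 of a whole number with 33 bases taken off each length. A doubled total would give the same steps, so the smaller was kept. On simulated data for this comparison (10012 features, 200 changed), limma called 84.3% of genes with a log2 change of 1 and 99.3% with 2, and 7.55% of calls were false. The changed genes were drawn from those with higher vehicle levels. Noise was drawn for each gene independently, so shifts shared by many genes in 1 animal were not simulated. Changes below 1 were not simulated either, and every member's log2 change was smaller than 1, so these shares do not apply to the members.

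Members and lists were chosen with earlier results of these data known. Every member is named and, from each other list, the 3 tested genes with the smallest p. Of the latter, 2 are not reported here. The interferon list was added after the table was seen. Alternatives were 2 scalings, 2 filters, 2 pseudocounts, limma without the trend, 1 transcript per gene, and leaving out each animal.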

Additional observations from a re-analysis of the deposited data

How the results depend on the processing

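No member passed an adjusted p of 0.05 under any of the 14 alternatives, all by limma. Over all genes the counts of calls were 1 lower with no filter on low values, 1 lower without the mean trend and 1 higher with the transcript of the highest mean, against 0 in each direction as reported. Leaving out 1 animal gave 0 to 4 higher, with 3 without vehicle animal 1 and 4 without melatonin animal 4, and 0 lower. The log2 change of Srebf1 was 0.33 with its higher transcript alone, against -0.15 for the sum. Leaving out 1 animal turned the sign of 7 members, with ranges of -0.020 to 0.221 for Mvk, -0.079 to 0.607 for Idi1, -0.024 to 0.468 for Fdps, -0.101 to 0.104 for Nsdhl, -0.202 to 0.421 for Insig1, -0.222 to 0.213 for Insig2 and -0.104 to 0.035 for Srebf2. The sterol median lay between 0.04 and 0.27 and that of the fatty acid arm between 0.10 and 0.14. Their difference ranged from -0.07 to 0.14 and was 0.01 to 0.04 in the settings that kept each animal. The median over all genes was 0.00 and -0.01 under the 2 other scalings, against -0.02. No paired analysis was possible because the animals of the 2 groups share no replicate number. The depth limits Insig2, Hsd17b7 and Scd, which rest on at most 60 fragments per library by the smaller depth estimate. Every comparison is limited by 3 animals per group.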
